A study of Macaca fascicularis with 34 samples.

Results

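The earliest germ cells of the series are 3 single cells from cynomolgus monkey embryos (Macaca fascicularis) at embryonic day (E) 13, set here against the germ cells of E16, with the only E14 cell given as a value between them. The comparison takes all 3 E13 cells and the E16 cells with less than 100 RPM (read counts scaled to equal library totals) of APOA1, an apolipoprotein gene of endoderm, which keeps 10 of 11 E16 cells. With the E14 cell this makes 14 of the 34 cells of the series. The labels name embryo as the tissue and give no genotype, treatment, sex or animal, nor the number of embryos, so each stage stands as 1 sample. Cells are numbered in accession order, SDs describe the spread between cells of a stage, and no difference was tested. E13, E14 and E16 cells carry the title codes MS10, MS13 and MS09, so stage, code and sequencing depth cannot be told apart. For the X chromosome alone, the 9 male gonad cells of E36, E47 and E55, the 2 cells of E17 and the 8 cells of E20 are set beside them.

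Primordial germ cells are the founders of eggs and sperm. In primates they are specified around the start of gastrulation by BMP, WNT and activin or NODAL signals, which switch on T (brachyury, now TBXT), EOMES, SOX17, TFAP2C and PRDM1. They keep or regain pluripotency genes such as POU5F1 and NANOG, hold back somatic programmes, and later erase much of their DNA methylation. In the cynomolgus monkey the first such cells have been placed in the amnion before they move toward the yolk sac and gonad.

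The cells at both days carried the germ cell programme. All 10 germ cell markers examined averaged at least 15 RPM at E13, in the E14 cell and at E16, with 10 of 10 reaching that level in each E13 cell and 9 or 10 in each E16 cell. Their summed level was 7611 to 10259 RPM in the E13 cells, 8153 RPM in the E14 cell and 4691 to 10221 RPM in the E16 cells. Of 8 endoderm markers, 0 averaged 15 RPM at E13 and 0 at E16, with sums of 7.73 to 32.3 RPM and of 1.27 to 72.0 RPM, while the E14 cell had 2 of 8 and a sum of 139 RPM, 112 RPM of it FOXA1. APOA1, which chose the cells, is among the 8. In a wider list of 22 endoderm genes 4 were measured, and GATA4, an endoderm and heart factor, averaged 206 ± 135 RPM at E13 and 76.9 ± 56.6 RPM at E16, with overlap. The E16 cell left out, cell 8, had 1430 RPM of APOA1, 8 of 8 endoderm and 8 of 10 mesoderm markers. The E16 cells kept had at most 0.835 RPM of APOA1, and the E13 cells had 0, 1.29 and 9.23 RPM. The E16 cells were chosen by these APOA1 values, which are given as a description and support nothing. Markers of blood and endothelium summed to at most 2.12 RPM in an E13 cell and 28.4 RPM in an E16 cell, and 7 of the 8 had 0 reads at E13. A wider list of 25 blood and endothelium genes had 4 measured members, VWF, ESAM, KDR and LMO2.

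**Figure D1:**
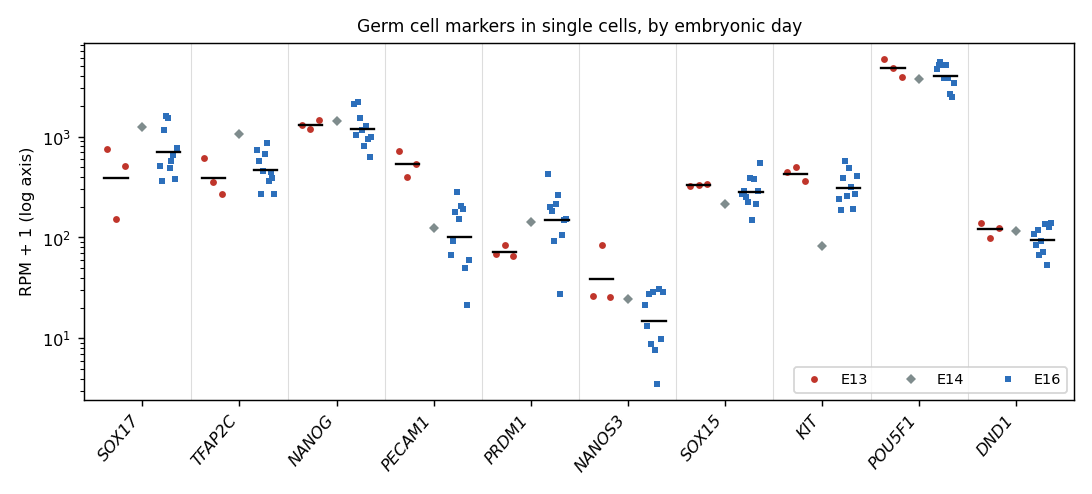
RPM + 1 (log axis) of 10 germ cell markers in each of 3 E13 cells (circles), the E14 cell (diamonds) and 10 E16 cells (squares); black bars are the back-transformed means of log2(RPM + 1). PECAM1 is the marker whose E13 cells all lie above the E16 cells, while SOX17, TFAP2C, NANOG and POU5F1 overlap between the days.

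Across the transcriptome, measured genes are those averaging 15 RPM or more on either day, which 8663 of the 28551 genes in the table reached. Higher or lower means a difference of at least 1 in mean log2(RPM + 1), which is 2-fold on that scale. By this measure 1884 genes (21.7%) were higher and 2046 (23.6%) lower at E13, and the median difference over all measured genes was 0.0078. A pseudocount of 10 RPM in place of 1 left 986 higher and 1111 lower. In 266 genes (3.07%) every E13 cell also lay above every E16 cell, and in 172 (1.99%) below. These shares are the background for each list that follows. They describe single cells without replication, and a gene enters the measured set through the day on which it is higher. The non-overlap counts depend on each of the E13 cells: without E13 cell 1, 2 or 3 they were 493, 419 and 484 higher, and 301, 272 and 334 lower. E13 cells held 472189 to 775709 reads, the E14 cell 2310016, and the E16 cells 1933059 to 3556590. Even so, 6261 to 6779 genes reached 15 RPM in an E13 cell, 7184 in the E14 cell and 6171 to 6951 in an E16 cell. With every cell thinned to 470000 reads the per-gene differences had a Spearman correlation of 0.991 with the unthinned ones across genes, which are not independent replicates. With thinning 1957 genes were higher and 1978 lower, and the non-overlap counts fell to 235 higher and 123 lower genes. Longer genes were somewhat lower at E13, with a median difference of -0.15 in the longest 2081 genes and 0.14 in the shortest 2081. Beyond this thinning, the part of gene length, depth and code in the results was not tested.

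The factors that define the lineage were read in every cell on both days, and their levels overlapped. TFAP2C, an AP-2 transcription factor of germ cell specification, had 606, 357 and 271 RPM in the E13 cells, 1052 RPM in the E14 cell, and from 266 over a median of 453 to 869 RPM in the E16 cells. NANOG had 1298, 1182 and 1447 RPM at E13 and 625 to 2193 RPM (median 1104) at E16, and POU5F1 averaged 4881 ± 978 RPM at E13 (n = 3 cells) and 4157 ± 1094 RPM at E16 (n = 10 cells). The stages overlapped for all 3 genes, and the differences of mean log2(RPM + 1), E13 minus E16, were -0.27, 0.15 and 0.26. SOX15, a SOX factor of human germ cell precursors, overlapped too, with 322, 330 and 341 RPM at E13 against 146 to 549 RPM at E16. SOX17, which directs endoderm and, in primates, germ cells, had 748, 151 and 511 RPM at E13, 1241 RPM at E14 and 362 to 1610 RPM (median 609.8) at E16. E13 cell 2 was below every E16 cell. PRDM1 (BLIMP1), a repressor of somatic genes, was lower in level at E13, with 67.8, 83.8 and 64.6 RPM against 26.6 to 426 RPM (median 166) at E16, a difference of -1.04. With thinned reads the PRDM1 difference was -0.90, short of the 2-fold cut, and E16 cell 7 lay below all E13 cells.

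T and the surface genes PECAM1, PDPN and ITGA6 were higher in every E13 cell than in any E16 cell. T, the primitive streak factor, had 635, 931 and 747 RPM in the E13 cells, 515 RPM in the E14 cell and 108 to 628 RPM (median 345) in the E16 cells. Every E13 cell was above every E16 cell, and the mean was 2.10-fold higher. PECAM1, an adhesion molecule also found on endothelium, had 724, 401 and 537 RPM at E13, 122 RPM at E14 and 20.4 to 278 RPM (median 122) at E16, with no overlap and a mean 4.30-fold higher at E13. PDPN, a mucin-type glycoprotein used to sort human germ cell precursors, had 2119.9, 3564 and 2116 RPM at E13, 1952 RPM at E14 and 306 to 1798 RPM at E16. PDPN did not overlap between the days, and its mean was 2.73-fold higher at E13. ITGA6, a laminin-binding integrin, likewise had no overlap, with 400.3, 754 and 506 RPM at E13 against 80.7 to 343 RPM at E16. KIT, the stem cell factor receptor, averaged 433 ± 68.3 RPM at E13 and 329 ± 128 RPM at E16. CXCR4, the receptor that guides migrating germ cells to CXCL12, went the other way, with 0, 83.8 and 90.7 RPM at E13 and 28.1 to 578 RPM (median 261) at E16. E13 cell 1, the shallowest library, is the one without a CXCR4 read. Of 16 surface and migration genes 11 were measured, 4 of them (36.4%) at least 2-fold higher at E13 and 1 (9.09%) lower, against 21.7% and 23.6% of all measured genes. ITGB1, CDH2 and EPCAM differed by -0.42, -0.31 and -0.21 on the log2 scale, E13 minus E16.

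Among pluripotency genes, 3 of 15 measured members (21 in the list) were at least 2-fold higher at E13 and 0 lower, a share of 20.0% higher that is near the 21.7% of all measured genes. GDF3, a TGF-beta family ligand, had 911, 411 and 609 RPM at E13, 237 RPM at E14 and 0 to 602 RPM (median 48.9) at E16. DPPA5, an RNA-binding gene of pluripotent cells, averaged 82.9 ± 43.7 RPM at E13 and 56.3 ± 97.1 RPM at E16, and LIN28B, a blocker of let-7 maturation, 25.7 ± 27.1 and 5.82 ± 7.65 RPM. These 3 genes overlapped between the days. SOX2, a pluripotency factor that primate germ cells lack, stayed at or under 4.24 RPM in every E13 and E16 cell and had 37.7 RPM in the E14 cell. Of 14 specification genes, 12 were measured, with shares of 25.0% higher and 16.7% lower that are near those of all measured genes. The 3 higher at E13 were T, NANOS3, a translational repressor needed for germ cell survival, and DPPA3 (STELLA). The 2 lower were ARID5B and PRDM1, of which PRDM1 did not reach the cut with thinned reads. NANOS3 averaged 44.6 ± 33.9 RPM at E13 and 17 ± 10.5 RPM at E16. DPPA3 had 36, 72.2 and 73.8 RPM at E13 and 0 to 93.4 RPM (median 9.5) at E16.

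Cells of the same day were alike to a degree that overlapped with that between days. Pearson correlations of thinned log2 levels across the measured genes ran from 0.530 to 0.573 between E13 cells, from 0.509 to 0.664 between E16 cells and from 0.428 to 0.551 between the days. The E14 cell correlated at 0.513 to 0.553 with E13 cells and at 0.498 to 0.574 with E16 cells. With the E16 cell left out for its APOA1 level it correlated at 0.649. The E13 cells did so at 0.489 to 0.548 (median 0.545), against a median of 0.490 with the E16 cells kept. The kept E16 cells correlated with the left-out cell at 0.552 to 0.630 (median 0.595), against a median of 0.568 among themselves. Higher values with that cell were thus seen in each group and are not particular to E13 or E14. These values describe likeness over genes and are not a test. Of the genes higher at E13, 1085 (57.6%) reached 15 RPM in all 3 E13 cells. Of the lower genes, 1034 (50.5%) reached it in at least 80% of the E16 cells, and 133 measured genes had 0 reads at E13.

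The 15 genes with the largest excess at E13 were a mixed group. They held interferon-linked and NF-kB genes, a WNT ligand, a clotting factor, and genes of oocytes and testis. KHDC1L, of the KHDC1 family of KH-domain genes, had 3287, 1627 and 1412 RPM in the E13 cells, 0.433 RPM in the E14 cell and 0 to 119 RPM (median 0.439) in the E16 cells. Its mean was 152-fold higher at E13, and its close paralogues make the assignment of reads uncertain. IFI6, an interferon-induced mitochondrial protein, had 3611, 1493 and 1289 RPM at E13, 300.4 RPM at E14 and 0 to 406 RPM (median 45.5) at E16, 21.4-fold higher in the mean. Both genes separated the days without overlap. WNT2B, a WNT ligand, had 65.7, 28.4 and 87.7 RPM at E13, 0 RPM at E14 and 2 reads in all E16 cells together. Its pooled E13 to E16 ratio was 722, with an exact 95% interval of 195 to 6034 that covers counting error only.

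VWF, the von Willebrand clotting factor, is best known from endothelium. It had 76.2, 137 and 132 RPM in the E13 cells, 52.8 RPM in the E14 cell and 0 to 40.5 RPM (median 0) in the E16 cells. In the E13 cells the blood markers PTPRC, SPI1, GATA1, HBA1 and HBZ and the endothelial markers TEK and EMCN had 0 reads, and CDH5 had 2.12, 1.29 and 0 RPM. Of the wider list, LMO2, a transcriptional cofactor of blood formation, had 301, 7.73 and 240 RPM at E13 and 152 to 562 RPM at E16, and ESAM, an endothelial adhesion gene, 10.6, 0 and 43.1 RPM at E13 and 0 to 35.7 RPM at E16. KDR, a VEGF receptor, had 14.8, 40.0 and 95.4 RPM at E13 and 5.11 to 141 RPM (median 44.3) at E16. These 3 genes overlapped between the days. The part of other cell types in the VWF values was not tested. E2F2, a transcription factor of the entry into S phase, had 99.5, 258 and 106 RPM at E13, 45.5 RPM at E14 and 0 to 25.6 RPM at E16. NFKBIE, an inhibitor of NF-kB, had 36, 72.2 and 61.5 RPM at E13, 28.6 RPM at E14 and 0 to 23.4 RPM at E16. The splicing-related CCDC84 had 197, 231 and 278 RPM at E13 against 1.47 to 58.0 RPM at E16. These 4 genes had every E13 cell above every E16 cell, as did SHISA5, a p53-linked apoptosis gene, and ABCA4, a lipid transporter of the retina.

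In 5 of these 15 genes the cells overlapped between the days through 1 or more E16 cells. NLRP7, an NLR-family gene with a maternal role in human embryos, had 544, 491 and 146 RPM at E13, 0.433 RPM at E14 and 0 to 313 RPM (median 11.5) at E16. SPATA22, a factor of meiotic recombination, had 136, 68.3 and 38.4 RPM at E13, 1.3 RPM at E14 and 0 to 64.9 RPM (median 0.232) at E16. For both, the highest E16 cell exceeded the lowest E13 cell. COX8C, a cytochrome c oxidase isoform, averaged 182 ± 142 RPM at E13 and 21.7 ± 30.9 RPM at E16. GALNTL4, a glycosyltransferase, averaged 123 ± 106 RPM and 5.47 ± 14.8 RPM, and EIF1AY is described with the X chromosome.

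**Figure D2:**
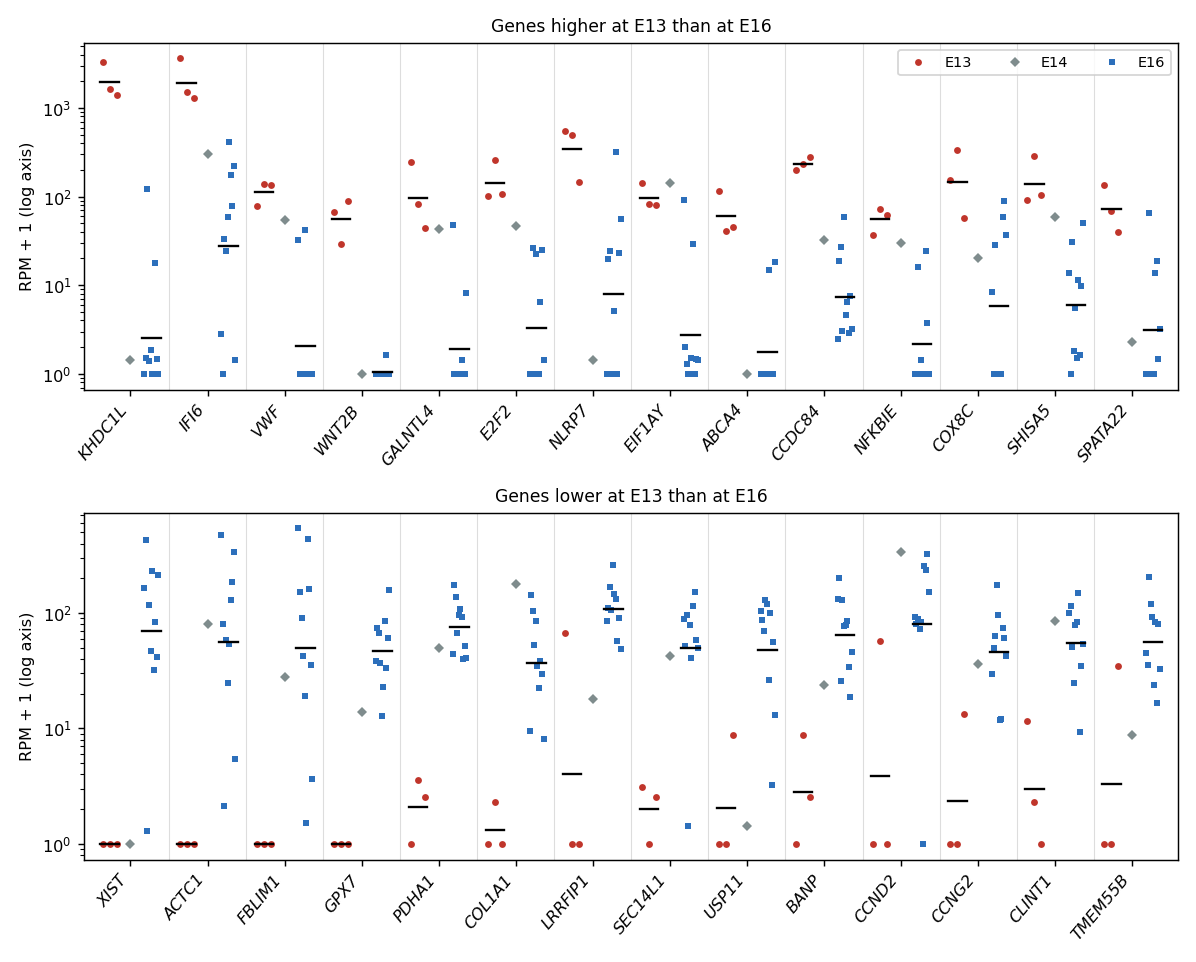
RPM + 1 (log axis) in each E13 (circles), E14 (diamonds) and E16 (squares) cell for 14 of the 15 genes with the largest positive (top) and 14 of the 15 with the largest negative (bottom) difference, black bars being back-transformed means of log2(RPM + 1). In 9 of the upper and 7 of the lower genes shown the E13 cells do not overlap the E16 cells.

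The 15 genes with the largest deficit at E13 included XIST, muscle-type and filamin-linked cytoskeletal genes, a fibrillar collagen and a cyclin. ACTC1, cardiac alpha actin, had 0 reads in the 3 E13 cells, 79.2 RPM in the E14 cell and 1.12 to 475 RPM (median 68.1) in the E16 cells. A sum of 0 reads allows up to 3 reads of the pooled E13 depth, or 1.58 RPM, which puts ACTC1 at least 85.8-fold lower at E13. FBLIM1, a filamin-binding protein of cell junctions, had 0 reads at E13, 26.8 RPM at E14 and 0.517 to 539 RPM (median 65.1) at E16, at least 97.8-fold lower. GPX7, a peroxidase of the endoplasmic reticulum, had 0 reads at E13, 13 RPM at E14 and 11.7 to 157 RPM at E16, at least 36.1-fold lower. For all 3 genes the E13 cells lay below every E16 cell. In ACTC1 and FBLIM1 the lowest E16 level is under the 1.29 RPM of 1 read in the deepest E13 library. An E13 cell could lie below it only with 0 reads, so depth bears on that separation.

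CCND2, a D-type cyclin of G1, had 0, 56.7 and 0 RPM in the E13 cells, 339.8 RPM in the E14 cell and 0 to 326 RPM (median 89.8) in the E16 cells, so the days overlapped. CCNG2, a cyclin of arrested cells, had 0, 0 and 12.3 RPM at E13 and 10.9 to 175 RPM at E16. BANP, a nuclear matrix protein, had 0, 7.73 and 1.54 RPM at E13 and 17.7 to 201 RPM at E16, without overlap. LRRFIP1 was at 65.7 RPM in E13 cell 1 and at 0 RPM in the other two, against 48.0 to 260.0 RPM at E16. In addition, SEC14L1, CLINT1 and TMEM55B, averaged 1.22, 3.96 and 11.3 RPM at E13 and 72.2, 68.9 and 72.8 RPM at E16, and overlapped.

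The E14 cell fell on either side. It was nearer to the E13 mean than to the E16 mean in 7 of the 15 higher and 4 of the 15 lower genes. Over all measured genes it was nearer to E13 in 46.9%, over the non-overlapping higher genes in 39.5% and over the lower ones in 32.6%. The E13 mean comes from 3 shallow cells and the E16 mean from 10. The named and non-overlapping genes were also chosen on those cells. Both can place a further cell nearer to E16, so these shares do not measure likeness. The E14 cell was mixed in single genes too. This cell resembled E13 in having 0 reads of XIST and 139.8 RPM of EIF1AY. It resembled E16 in KHDC1L, WNT2B and NLRP7, each at or below 0.433 RPM, and in the reads of ACTC1, FBLIM1 and COL1A1 that the E13 cells lacked or nearly lacked. It also carried transcripts low on both days, such as ID3, FN1 and DNMT3B, and 6 of 8 epiblast markers reached 15 RPM in it, against 3 in the E13 mean and 2 in the E16 mean.

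The X chromosome was read lower at E13 than at E16. XIST, the RNA that coats an inactive X chromosome, had 0 reads in all 3 E13 cells and in the E14 cell. It had 0.281 to 425 RPM (median 99.2) in the E16 cells, 9 of which reached 15 RPM, so XIST was at least 76.4-fold lower at E13. E16 cell 3 was the exception among its group, with 0.281 RPM, a single read. Whether counting used strand is not given, so an antisense partner of XIST cannot be told apart. The entry paired with human EIF1AY, a Y-linked translation initiation factor in humans, had 139.8, 81.2 and 78.4 RPM at E13, 139.8 RPM at E14 and 0 to 89.9 RPM (median 0.455) at E16. It lies on chromosome 20 in the table and may share reads with its X-linked homologue EIF1AX, which averaged 246 ± 21.9 RPM at E13 and 313 ± 134 RPM at E16.

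The difference extended over the chromosome. The mean level of 287 X genes divided by that of 7388 autosomal genes was 0.949, 1.01 and 1.03 in the E13 cells, 0.876 in the E14 cell and 1.05 to 1.57 (median 1.19) in the E16 cells. Every E13 cell was below every E16 cell, and E16 cell 3, which lacked XIST, had the highest ratio. The 9 male gonad cells of the series, from E36, E47 and E55, ranged from 0.779 to 1.05 (median 0.887), with 0 to 53 RPM of XIST and 16.1 to 109.7 RPM of EIF1AY. The 2 E17 cells ranged from 0.932 to 0.983 and the 8 E20 cells from 0.941 to 1.03. Their XIST was at most 0.373 and 2.22 RPM. By this ratio the E16 cells stood higher than these groups and E13, but the E47 cell (1.04792) was just under E16 cell 4 (1.04803). By the share of reads from X genes the E47 cell, at 3.99739%, lay within the range of the E16 cells, 3.8886% to 5.79138%. The male gonad and E16 cells thus overlapped in that share, while the E13 cells had 3.54477% to 3.81531%. Of 317 measured X genes, 52 were higher and 112 (35.3%) lower at E13, with a median difference of -0.41. The median over autosomes was 0.03, and single autosomes had medians of -0.25 (chromosome 17) to 0.31 (chromosome 19). With no filter on low values the X minus autosome difference was -0.16, against -0.44 with the filter.

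PDHA1, the X-linked alpha subunit of pyruvate dehydrogenase, had 0, 2.58 and 1.54 RPM in the E13 cells, 48.9 RPM in the E14 cell and 39.2 to 174 RPM (median 78.7) in the E16 cells. Its 3 reads at E13 gave a pooled ratio of 0.0189 with an exact 95% interval of 0.00389 to 0.0553. USP11, an X-linked deubiquitinase, had 0, 0 and 7.69 RPM at E13, 0.433 RPM at E14 and 2.21 to 127 RPM at E16. Other X genes differed less: RLIM, the E3 ligase that activates XIST in mouse, had 112, 147 and 208 RPM at E13 and 80.1 to 233 RPM at E16. The labels give no sex for these embryos. Sex, stage, embryo and code cannot be told apart in these X-linked and EIF1AY values. E20 cell 8, which shares the code of the E16 cells, had 0.369 RPM of XIST, 50.2 RPM of EIF1AY and an X-to-autosome ratio of 0.960.

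**Figure D3:**
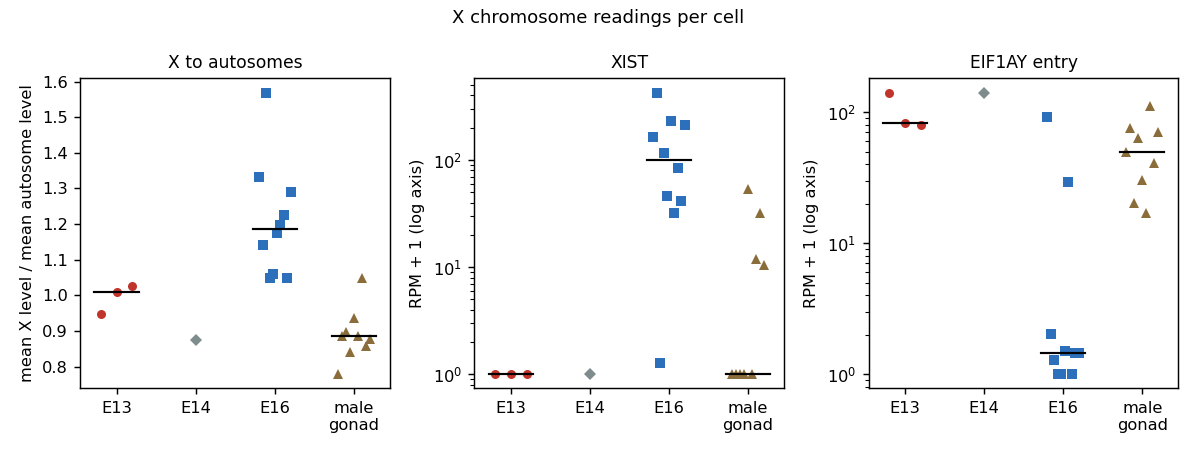
X-to-autosome ratio of mean levels (left), XIST (middle) and the EIF1AY entry (right, both RPM + 1 on log axes) per cell at E13 (3 cells), E14 (1), E16 (10) and in male gonads (9), black lines being medians. XIST is at 0 RPM in every E13 cell and at 0.281 to 425 RPM in the E16 cells.

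Extracellular matrix genes were lower at E13 in part. Of 25 extracellular matrix genes 14 were measured, 8 (57.1%) at least 2-fold lower and 1 (7.14%) higher at E13. All measured genes had 23.6% lower and 21.7% higher. The list's median difference was -1.51. It was -0.89 without E13 cell 1, -0.81 with a pseudocount of 10 RPM and -0.23 over members averaging 50 RPM or more. COL1A1, the alpha 1 chain of type I collagen, had 0, 1.29 and 0 RPM in the E13 cells, 179 RPM in the E14 cell and 7.12 to 141 RPM (median 35.3) in the E16 cells. That 1 read at E13 gave a pooled ratio of 0.0101 (exact 95% interval 0.000255 to 0.0563). COL5A1 and COL6A3, chains of types V and VI, had 0 reads in every E13 cell and 1.69 to 92.0 RPM and 1.27 to 110.2 RPM in the E16 cells. They were at least 22.4-fold and 19.7-fold lower at E13.

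VIM, the mesenchymal intermediate filament that germ cells also express, had 123, 588 and 168 RPM at E13, 151 RPM at E14 and 449.5 to 2873 RPM (median 1839) at E16. E13 cell 2 overlapped the E16 cells in VIM. LAMA5, a laminin chain of basement membranes, was the member at least 2-fold higher, with 392, 404 and 206 RPM at E13, 393 RPM at E14 and 78.1 to 326 RPM (median 115) at E16. LAMA5 overlapped between the days. NID2, a basement membrane nidogen, averaged 58.6 ± 84.3 RPM at E13 and 29.7 ± 30.7 RPM at E16. FN1, fibronectin, averaged 53.4 ± 41.0 RPM at E13 and 31.7 ± 18.4 RPM at E16 and stood at 819 RPM in the E14 cell. Averaged over the 14 measured members, the E13 cells were at 3.06 to 3.97 on the log2 scale, below all E16 cells at 4.49 to 6.37, with the E14 cell at 5.55. Of 10 mesoderm markers, which include COL1A1, 1 averaged 15 RPM at E13 and 3 at E16, with summed levels of 30.8 to 121 RPM and of 13.3 to 241 RPM. Their part in the matrix values was not tested.

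FGF and ERK pathway genes were lower at E13 in part. FGF signals through receptor kinases to ERK, and ERK induces SPRY and SPRED proteins that damp the pathway. Of 25 genes 16 were measured, 8 (50%) lower and 2 (12.5%) higher at E13, against 23.6% and 21.7% of all measured genes. The median was -1.03. It was -0.75, -0.82 and -1.44 without E13 cell 1, 2 or 3, and -0.33 with no filter on low values. SPRY4 had 4.24, 9.02 and 4.61 RPM in the E13 cells, 141 RPM in the E14 cell and 0 to 168 RPM (median 46.5) in the E16 cells. FGFR3 had 0, 28.4 and 3.08 RPM at E13 and 0.517 to 72.6 RPM (median 50.4) at E16, and SPRED1 averaged 8.93 ± 10.6 RPM and 36.4 ± 28.8 RPM. FGFR1, another receptor, was higher at E13, with 275, 49.0 and 61.5 RPM against 0.465 to 103 RPM (median 30.5). All 4 genes overlapped between the days.

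BMP ligands act through ACVR1 and BMPR1A to SMAD1 and SMAD5, which join SMAD4 and switch on ID genes. Of 30 genes of this pathway 18 were measured, 7 (38.9%) lower and 0 higher at E13, against 23.6% and 21.7% of all measured genes. The median was -0.71 (-0.19 with no filter). ACVR1 had 14.8, 1.29 and 0 RPM in the E13 cells, 57.6 RPM in the E14 cell and 4.65 to 126 RPM (median 41.7) in the E16 cells. ID3, a target, had 2.12, 2.58 and 0 RPM at E13, 390 RPM at E14 and 0.737 to 74.7 RPM (median 25.2) at E16. ID1, the other common target read here, differed less, at 12.7, 29.7 and 29.2 RPM against 16.6 to 60.7 RPM. SMAD4, shared with the activin arm, had 0, 0 and 7.69 RPM at E13 and 0.423 to 81.6 RPM at E16, and SMAD5 averaged 30.2 ± 25.2 and 100 ± 40.8 RPM. SMAD1 and the ligand gene BMP4 averaged 28 and 3.14 RPM at E13 and 22.7 and 1.54 RPM at E16. Each of these genes overlapped between the days.

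NODAL and activin genes differed in both directions. Of 24 genes 16 were measured, 6 (37.5%) higher and 3 (18.75%) lower at E13 (median 0.71), against 21.7% and 23.6% of all measured genes. The list's median was 1.45 without E13 cell 2. INHBA, which encodes the activin A subunit, had 78.4, 77.3 and 40.0 RPM in the E13 cells, 16 RPM in the E14 cell and 6.33 to 17.1 RPM (median 12) in the E16 cells. All E13 cells were above all E16 cells, and the mean was 5.50-fold higher. LEFTY2, a NODAL antagonist and target, averaged 61.0 ± 41.3 RPM at E13 and 27.5 ± 44.5 RPM at E16, and NODAL 48.0 ± 45.1 and 38.8 ± 51.5 RPM. Both overlapped, with E16 medians of 0.481 and 1.87 RPM. The signal transducer SMAD3 averaged 77.0 ± 51.1 RPM at E13 and 36.4 ± 44.4 RPM at E16, and SMAD2 had 0, 99.3 and 50.8 RPM at E13 and 29.8 to 158 RPM at E16.

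WNT genes were split much as all measured genes were. Of 41 genes 17 were measured, 4 (23.5%) higher and 3 (17.6%) lower at E13, near the 21.7% and 23.6% of all measured genes. The median was 0.11 (-0.29 without E13 cell 3). The higher ones were T, WNT5B, AXIN2, a feedback target of beta-catenin, and AXIN1. WNT5B had 172, 87.7 and 49.2 RPM in the E13 cells, 239 RPM in the E14 cell and 0 to 80.2 RPM (median 32.9) in the E16 cells. AXIN2 had 69.9, 0 and 24.6 RPM at E13 and 0 to 57.0 RPM at E16. APC, of the beta-catenin destruction complex, averaged 4.30 ± 7.44 RPM at E13 and 36.9 ± 35.8 RPM at E16. All 3 genes overlapped between the days. WNT2B, described above, was not on this list.

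Interferon-linked and other innate immune genes were higher at E13 in part. Of 18 genes 12 were measured, 7 (58.3%) higher and 3 (25%) lower, against 21.7% and 23.6% of all measured genes. The median was 1.55. It was 0.76 without E13 cell 3, 0.45 with no filter and 0.55 with a pseudocount of 10 RPM. IRF9, the DNA-binding subunit of the interferon-activated ISGF3 complex, had 203, 137 and 232 RPM in the E13 cells, 88.3 RPM in the E14 cell and 18.8 to 68.3 RPM (median 33.7) in the E16 cells, without overlap. IFITM1, a surface protein of early germ cells in mouse, had 1197, 1744 and 855 RPM at E13, 2039 RPM at E14 and 134 to 1140 RPM (median 292) at E16. Its neighbours IFITM2 and IFITM3 overlapped between the days, at 205 ± 97.6 and 185 ± 118 RPM at E13 and 233 ± 159 and 235 ± 190 RPM at E16. Reads of these near-identical copies may be split.

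Not every interferon gene stood higher. MX1, an antiviral GTPase, averaged 3.44 ± 5.95 RPM at E13 and 22.7 ± 37.5 RPM at E16, and B2M, the light chain of MHC class I, 8.72 ± 8.48 and 19.7 ± 34.1 RPM. IL6ST (gp130), the shared receptor of the LIF and IL6 cytokines, had 50.8, 7.73 and 15.4 RPM in the E13 cells, 63.6 RPM in the E14 cell and 52.3 to 375 RPM (median 157) in the E16 cells, with all E13 cells below. IFI16, a DNA sensor, was in contrast higher in level at E13, though the days overlapped. It had 138, 28.4 and 52.3 RPM at E13, 0 RPM at E14 and 0 to 150 RPM (median 0.207) at E16.

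**Figure D4:**
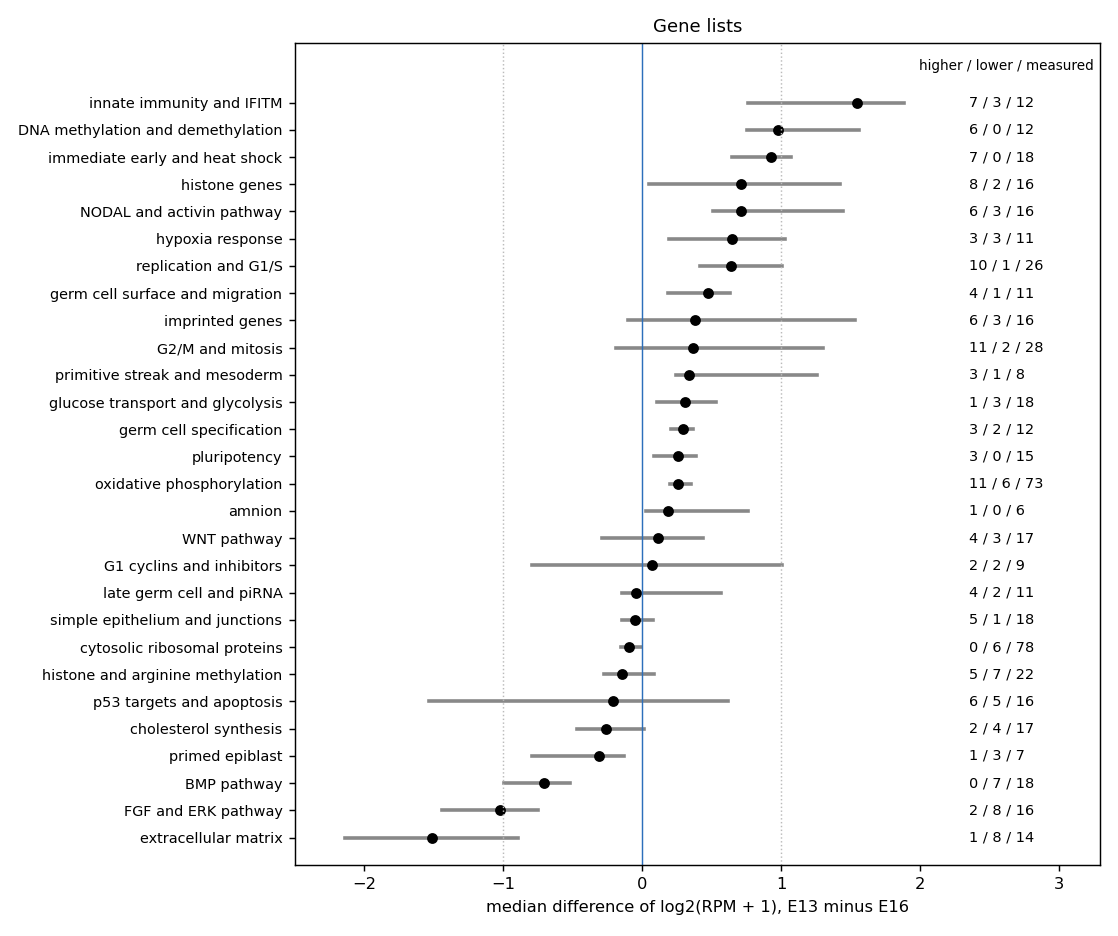
Median difference of log2(RPM + 1), E13 minus E16, over the measured members of 28 gene lists (points), with the lowest and highest median when 1 of the 13 cells is left out (grey lines). The numbers give members at least 2-fold higher, lower and measured; the matrix list lies lowest at -1.51 and the innate list highest at 1.55.

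Genes of DNA methylation showed 6 of 12 measured members (50%, 19 in the list) higher at E13 and 0 lower. All measured genes had 21.7% higher and 23.6% lower. The median was 0.98 (1.56 without E13 cell 2, 0.28 with all 11 E16 cells). TRIM28 (KAP1), which recruits silencing complexes to imprints and retroelements, had 411, 767 and 797 RPM in the E13 cells, 284 RPM in the E14 cell and 124 to 285 RPM (median 205) in the E16 cells, without overlap. DNMT3L, the cofactor of de novo methylation, had 108, 24.5 and 60.0 RPM at E13, 3.03 RPM at E14 and 0 to 82.4 RPM (median 32.3) at E16. TET1, which oxidises methylcytosine, had 69.9, 49.0 and 292 RPM at E13 and 1.24 to 164 RPM at E16. Both overlapped between the days. The methyltransferases overlapped: DNMT1, for maintenance, had 93.2, 204 and 0 RPM at E13 and 0.368 to 218 RPM at E16. DNMT3A and DNMT3B averaged 15.3 and 26.5 RPM at E13 and 16.8 and 36.8 RPM at E16, and UHRF1, which guides DNMT1, 9.69 and 12.6 RPM. DNMT3B had 342 RPM in the E14 cell.

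Of 27 histone and arginine methylation genes, 22 were measured, with 5 (22.7%) higher and 7 (31.8%) lower at E13. All measured genes had 21.7% higher and 23.6% lower, so the higher share was near that background. Among 31 imprinted genes 16 were measured, 6 (37.5%) higher and 3 (18.75%) lower. The imprinted list's median was 0.38, but 1.53 without E13 cell 2 and -0.10 without E13 cell 3. SNRPN, a paternally expressed splicing gene, had 527, 656 and 374 RPM in the E13 cells, 671 RPM in the E14 cell and 66.8 to 287 RPM (median 138) in the E16 cells, with no overlap. SGCE, also paternally expressed, had 1 read at E13 (1.29 RPM in cell 2) and 0.845 to 107 RPM at E16. Of 62 histone genes 16 were measured, 8 (50%) higher and 2 (12.5%) lower. HIST1H2BK, a core histone gene whose reads may be shared with its copies, had 191, 131 and 123 RPM at E13, 88.7 RPM at E14 and 0 to 116 RPM (median 12.3) at E16.

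Some later germ cell genes were already read at E13. TDRD1, a Tudor-domain scaffold of the piRNA pathway that silences transposons, had 46.6, 30.9 and 41.5 RPM in the E13 cells, 0 RPM in the E14 cell and 0 to 7.03 RPM (median 0.209) in the E16 cells. The E13 cells all lay above the E16 cells, and the mean was 28.1-fold higher. MAEL, another piRNA factor, had 46.6, 55.4 and 6.15 RPM at E13 and 0 to 95.4 RPM (median 2.58) at E16, and MOV10L1, the piRNA helicase, 33.9, 14.2 and 7.69 RPM against 0 to 15.1 RPM. PIWIL2, which binds piRNAs, went the other way, with 0, 1.29 and 40.0 RPM at E13 and 1.03 to 238 RPM (median 33.6) at E16. Of 24 later germ cell genes 11 were measured, 4 (36.4%) higher and 2 (18.2%) lower, against 21.7% and 23.6% of all measured genes. The median was -0.05 (0.36 and 0.54 without E13 cell 1 or 2). Of 20 meiosis genes, 3 were measured. SPATA22 and SYCP3, of the synaptonemal complex, were the 2 higher, and SYCP3 averaged 23.4 ± 17.6 RPM at E13 and 14.4 ± 15.3 RPM at E16.

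Few amnion and mesoderm genes were measured. Of 19 amnion genes 6 were, with 1 (16.7%) higher at E13 and 0 lower. Of 22 primitive streak and mesoderm genes 8 were, with 3 (37.5%) higher and 1 (12.5%) lower. All measured genes had 21.7% higher and 23.6% lower. The higher mesoderm genes were T, CDX1 and HAND1, and the lower one was SNAI1. HAND1, a factor of amnion and extraembryonic mesoderm, had 88.9, 103 and 20.0 RPM in the E13 cells, 42.0 RPM in the E14 cell and 0.368 to 49.7 RPM (median 2.45) in the E16 cells. GATA3 had 167, 52.9 and 9.23 RPM at E13, 154 RPM at E14 and 5.34 to 136 RPM at E16. The days overlapped for both genes. ISL1, a factor of the primate amnion, had 0 reads at E13, which allows up to 1.58 RPM of the pooled depth, 0 reads at E14 and 0 to 37.2 RPM (median 0) at E16. CDX1, a caudal homeobox gene of the streak, had 31.8, 1.29 and 52.3 RPM at E13, 67.1 RPM at E14 and 0 to 56.6 RPM (median 0) at E16. The 8 amnion markers summed to 76.9 to 309 RPM in the E13 cells, 302 RPM in the E14 cell and 28.7 to 210 RPM in the E16 cells. Of 17 primed epiblast genes 7 were measured, 1 (14.3%) higher and 3 (42.9%) lower. ZIC2, the higher one, had 186 RPM in E13 cell 1 but 1.29 and 10.8 RPM in the other two, against 0.417 to 51.5 RPM at E16.

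Cell cycle genes varied more between cells than between days. The 28 G2 and mitosis genes, all measured, averaged 6.53, 4.73 and 7.66 on the log2 scale in the E13 cells, 6.03 in the E14 cell and 3.31 to 7.84 in the E16 cells. Of these genes 11 (39.3%) were higher and 2 (7.14%) lower at E13, against 21.7% and 23.6% of all measured genes. The median of 0.36 was 1.3 without E13 cell 2 and -0.19 without E13 cell 3. MKI67, a marker of proliferating cells, had 121, 179 and 209 RPM at E13, 97.8 RPM at E14 and 0 to 387 RPM at E16. TOP2A, topoisomerase II alpha, had 246, 60.6 and 734 RPM at E13 and 4.42 to 1584 RPM at E16, and CCNB1, the mitotic cyclin, 116, 30.9 and 506 RPM against 8.16 to 1031 RPM. Both were lowest at E13 in cell 2, as was the list.

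Replication genes were higher in part. Of 28 genes 26 were measured, 10 (38.5%) higher and 1 (3.85%) lower, against 21.7% and 23.6% of all measured genes. The median was 0.64 (1.01 without E13 cell 3, 0.41 without E13 cell 2). TYMS, thymidylate synthase, had 633, 126 and 338 RPM in the E13 cells, 254 RPM in the E14 cell and 1.65 to 187 RPM (median 61.0) in the E16 cells. RRM2, the ribonucleotide reductase subunit of S phase, had 578, 112 and 106 RPM at E13, 323 RPM at E14 and 1.02 to 172 RPM (median 47.4) at E16. PCNA, the replication clamp, had 1364, 339 and 312 RPM at E13 and 95.6 to 687 RPM at E16, and E13 cell 1 was the highest for all 3. Of 9 measured G1 cyclins and inhibitors (16 in the list), 2 (22.2%) were higher and 2 (22.2%) lower, near the shares of all measured genes. CDKN1A (p21), which stops the cycle downstream of p53, had 48.7, 20.6 and 0 RPM at E13, 0 RPM at E14 and 0 to 4.18 RPM (median 0) at E16.

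**Figure D5:**
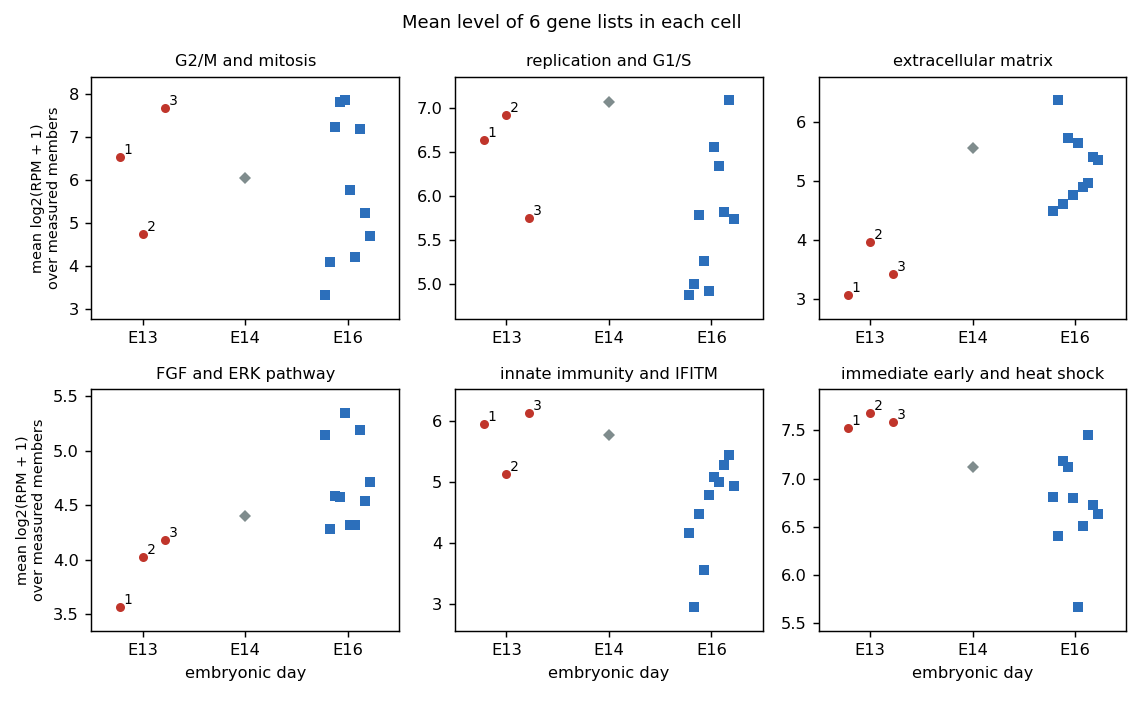
Mean log2(RPM + 1) over the measured members of 6 gene lists in each E13 cell (circles, numbered), the E14 cell (diamond) and each E16 cell (squares). The matrix and FGF lists place all 3 E13 cells below the E16 cells and the immediate early list places them above, while the 2 cell cycle lists overlap.

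Stress and survival genes differed gene by gene. Of 31 immediate early and heat shock genes 18 were measured, 7 (38.9%) higher and 0 lower at E13. All measured genes had 21.7% higher and 23.6% lower. The median was 0.93 (1.07 without E13 cell 2, 0.65 without E16 cell 1, 0.53 with no filter). The list averaged 7.52 to 7.68 on the log2 scale in the E13 cells, 7.12 in the E14 cell and 5.67 to 7.45 in the E16 cells. Such genes also respond to the handling of cells, and the part of handling was not tested. HSPD1, the mitochondrial chaperonin HSP60, had 731, 1735 and 1133 RPM at E13, 790.5 RPM at E14 and 167 to 504 RPM (median 369) at E16, without overlap. FOS, an immediate early transcription factor, had 231, 168 and 199.9 RPM at E13, 215 RPM at E14 and 0.517 to 323 RPM (median 98.6) at E16. Of 25 p53 targets and apoptosis genes 16 were measured, 6 (37.5%) higher and 5 (31.25%) lower. That list's median of -0.21 was -1.53 without E13 cell 1 and 0.62 without E13 cell 2. SESN2, a stress-induced inhibitor of mTORC1, had 201, 508 and 205 RPM at E13, 111 RPM at E14 and 14.4 to 127 RPM (median 39.2) at E16. BCL2L1 (BCL-XL), a survival factor, had 76.2, 130.2 and 63.1 RPM at E13, 9.96 RPM at E14 and 6.63 to 53.2 RPM (median 19.5) at E16. Both had all E13 cells above all E16 cells.

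Ribosomal protein genes were even between the days but for a few. Of 80 genes 78 were measured, 0 higher and 6 (7.69%) lower at E13, against 21.7% and 23.6% of all measured genes. The median was -0.10. RPL23A had 368, 362 and 358 RPM in the E13 cells, 1745 RPM in the E14 cell and 1734 to 3825 RPM (median 2478) in the E16 cells, with a mean 6.88-fold lower at E13. X-linked RPS4X had 1044, 902 and 1012 RPM at E13, 1311 RPM at E14 and 2389.7 to 4206 RPM (median 3144) at E16. RPL36 had 326, 215 and 183 RPM at E13, 503 RPM at E14 and 565 to 761 RPM (median 671) at E16. In all 3 genes every E13 cell was below every E16 cell. Retrocopies of ribosomal protein genes are common, so where their reads were counted is uncertain.

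In oxidative phosphorylation, 73 of 80 genes were measured, 11 (15.1%) higher and 6 (8.22%) lower at E13 (median 0.26). All measured genes had 21.7% higher and 23.6% lower. ATP5A1, the alpha subunit of the ATP synthase, had 2825, 4016 and 2971 RPM in the E13 cells, 1694 RPM in the E14 cell and 872 to 1887 RPM (median 1465) in the E16 cells. X-linked NDUFA1, of complex I, had 316, 89.0 and 159.9 RPM at E13, 160.2 RPM at E14 and 397 to 879 RPM (median 607) at E16. Every E13 cell was above every E16 cell for ATP5A1 and below for NDUFA1. Of 18 measured glycolysis genes (24 in the list), 1 (5.56%) was higher and 3 (16.7%) lower. PDK1, the kinase that holds back pyruvate dehydrogenase, was the higher one, with 112, 135 and 102 RPM at E13, 14.3 RPM at E14 and 19.1 to 71.4 RPM (median 54.9) at E16. Of 17 measured cholesterol genes (23 in the list), 2 (11.8%) were higher and 4 (23.5%) lower. EBP, an X-linked sterol isomerase, averaged 102 ± 44.4 RPM at E13 and 43.8 ± 44.4 RPM at E16.

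Of 19 hypoxia genes 11 were measured, 3 (27.3%) higher and 3 (27.3%) lower at E13, near the 21.7% and 23.6% of all measured genes. The median was 0.65 (0.20 and 1.03 without E13 cell 2 or 3). NDRG1, a hypoxia-induced gene, had 210, 119 and 24.6 RPM in the E13 cells, 0 RPM in the E14 cell and 0 to 118 RPM (median 1.97) in the E16 cells. Of 18 measured epithelial and junction genes (28 in the list), 5 (27.8%) were higher and 1 (5.56%) lower, with a median of -0.05. Of 37 HOX genes, 3 were measured. HOXC11, a posterior HOX gene, had 16.9, 52.9 and 27.7 RPM at E13, 3.46 RPM at E14 and 3.25 to 9.83 RPM (median 5.28) at E16, with all E13 cells above all E16 cells.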

How the data were processed

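Single-cell cDNA was amplified and built into SOLiD libraries, per the labels' protocols. The submitters' processing notes name cutadapt 1.3, TopHat 1.4.1 and Cufflinks 2.2.0, with no role. The genome build, annotation and strand setting are not given in the sources used. The authors deposited 1 table of log2(RPM + 1) values, which was returned to RPM. Low values were whole multiples of 1 read within 0.1 read in 99.7% to 99.9% of cases in the cells used, which gave each cell's reads. All columns belong to cells of the series (0 of another). Human gene symbols are those of the table, which pairs one with 17683 genes and uses older names such as GALNTL4.

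Each stage is 1 sample, so no test was run and p-values are not given. A difference is that of mean log2(RPM + 1), E13 minus E16, and understates low genes. Ratios of mean RPM are given as folds. Reads summed over cells have exact Poisson 95% intervals, and a count of 0 allows 3 reads. Amplified cDNA without molecular identifiers is not independent molecules, so both cover counting error only. The 15 highest and 15 lowest differences were named among genes with a human symbol and a mean of at least 50 RPM on the higher side. They also had to reach 15 RPM in all 3 E13 cells, or in 80% of the E16 cells. Some genes that qualified are left out of the text. For each list, 2 to 4 members were taken by level or difference. The members, lists and markers were chosen with earlier results of these data known. Lists share members, and lists with under 5 measured members have no median. The calculation was tested on simulated data. Alternatives were another filter, none, a pseudocount of 10, ratios of means, thinned reads, all 11 E16 cells, centring and leaving out each cell. Python 3.11.15, numpy 2.4.6, pandas 2.3.3, scipy 1.17.1 and matplotlib 3.10.9 were used.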

Additional observations from a re-analysis of the deposited data

Results flagged for a closer look

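Among 65 groups of 10 E16 cells screened, 4 had a cell whose gap to its nearest neighbour exceeded the critical share of the range, 0.466. That limit marks about 1 in 20 groups of independent, normally distributed values. Single-cell levels with many zeros are not such values, so the rate does not carry over to them. On the log2(RPM + 1) scale, WNT2B was at 0.71 in E16 cell 9 and at 0 in the other E16 cells. XIST was at 0.36 in E16 cell 3, with the next cell at 4.99. SEC14L1 was at 0.50 in E16 cell 4, with the next cell at 5.35. CCND2 was at 0 in E16 cell 6, with the next cell at 6.17.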

How the results depend on the processing

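No paired analysis was possible because cell numbers follow accession order and pair no cells. All 30 named genes kept their side of 2-fold under all 20 settings tried, 13 of which leave out 1 cell, and 0 results turned round where called. The named genes were chosen for the largest differences in these same cells, so their stability was largely set by that choice and is no support. With a filter of 50 RPM, 886 genes were higher, 789 lower and 110 lower without overlap, and the medians were 1.22 for mesoderm, -0.23 for matrix and -0.96 for p53. With no filter, 3111 genes were lower, X minus autosomes was -0.16, and the medians were -0.19 for BMP, -0.33 for FGF, -0.028 for imprinted and 0.45 for innate genes. With a pseudocount of 10 RPM, 986 genes were higher and 1111 lower, with -0.81 for matrix and 0.55 for innate genes. Ratios of means gave 0.55 for innate genes. All 11 E16 cells gave 0.28 for DNA methylation, -0.0114 for imprinted and -0.0501 for glycolysis genes. Leaving out 1 cell gave 275 to 493 higher and 183 to 334 lower genes without overlap. Medians then ran from -2.14 to -0.89 (matrix), -1.44 to -0.75 (FGF), 0.76 to 1.88 (innate), -0.10 to 1.53 (imprinted), -0.79 to 1.01 (G1 cyclins), -1.53 to 0.62 (p53) and 0.24 to 1.26 (mesoderm). The cause was not tested. With 3 shallow E13 cells of unknown embryos, depth limits genes near 1.58 RPM, and fewer than 3 pooled reads could not be detected reliably.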
